A study of Mus musculus with 8 samples.

Results

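The 39 genes described here are genes by which tissue macrophages are usually recognized or which macrophages use heavily, and they were measured by RNA sequencing in cultures of mouse calvarial osteoblasts. They were matched by symbol to the 47706 rows of the deposited count table, each symbol to 1 row, and the list was drawn up with earlier results of these data known. Calvarial osteoblasts are bone-forming cells released from the skullcap of newborn mice by serial collagenase digestion, so each culture began as a mixture of the cells of that tissue. In 4 cultures the cells received parathyroid hormone (PTH) for 24 hours after 7 days of differentiation, and 4 vehicle-treated cultures went through the same 7 days and 24 hours without the hormone. Both groups were starved of serum before the treatment, according to the methods of the study. The titles of all 8 libraries carry the prefix Con, no allele is named in the labels of either group, nor is a strain, and the methods of the study give the age of the mice as the first days after birth. The labels call the differentiation adipogenic, whereas the methods of the study describe osteogenic medium. Nothing in the labels says that the replicates came from separate isolations or animals, so that the p-values below measure only the spread between these samples, which may be technical.

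Macrophages are phagocytes of the myeloid lineage. In bone they line the surfaces where osteoblasts work, and resident macrophages are known to come along when calvarial cells are isolated. They depend on the receptor for colony-stimulating factor 1 (Csf1r) and on the transcription factor PU.1 (Spi1), they clear debris through scavenger and Fc receptors, and they signal through adaptors with an immunoreceptor tyrosine-based activation motif (ITAM), such as Tyrobp and Fcer1g. The receptor for PTH, in turn, is classically a protein of the osteoblast lineage.

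Total counts lay between 33605610 and 56090654 per library, and 16736 of the 47706 rows passed the filter on low counts. Levels are given as CPM, which are counts scaled to a common library size after normalization by edgeR's TMM method. A gene was called higher or lower when edgeR's quasi-likelihood test, two-sided and fitted to all 8 libraries, gave a Benjamini-Hochberg adjusted p under 0.05 over all 16736 genes. The summed level of 10 osteoblast genes ranged from 86743.9 to 125282.4 CPM. Defining genes of most other blood cells were near absent: 10 granulocyte and monocyte genes together reached at most 1.31 CPM, with 5 of them at 0 in every library, and 11 lymphocyte genes reached at most 4.64 CPM, with 5 at 0. The 7 mast cell genes reached at most 1.5 CPM, with 3 at 0. The 7 erythroid and platelet genes summed to 13.6 to 19.6 CPM with PTH and 10.6 to 14.8 CPM with vehicle. Of the 4 tested, 2 were called higher, as were 23.3% of all genes tested. The first was the platelet integrin Itga2b (log2 fold change 1.20, adjusted p = 0.000219), at 8.15 to 13.1 CPM with PTH. The second was the platelet chemokine Ppbp (adjusted p = 0.00101), at 0.468 to 0.757 CPM with PTH and at most 0.101 CPM with vehicle. The part of such cells in the results below was not tested.

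Macrophage genes were present in every culture and 18 of those tested were higher after PTH, but 1 vehicle library carried as much of them as the PTH-treated libraries. Of the 39 genes, 38 passed the filter on low counts. Of these, 18 (47.4%) were higher with PTH and 1, Tlr4, was lower, while 23.3% of all genes tested were called higher and 22.5% lower. DESeq2 called 19 members higher (19.5% of the genes it tested) and 1 lower (18%). The log2 fold change was above 0 for 36 of the 38 genes and had a median of 0.35, against -0.00 over all genes tested. The members took 0.288%, 0.355%, 0.331% and 0.31% of the normalized counts in PTH replicates 1 to 4, and 0.23%, 0.191%, 0.212% and 0.297% in vehicle replicates 1 to 4. In bulk RNA of this kind, more macrophages and more RNA of these genes per macrophage cannot be told apart. The gene that failed the filter, Ccr2, the receptor that brings monocytes out of the blood, had counts of 14, 4, 6 and 6 in the PTH-treated libraries and 0, 4, 4 and 4 in the vehicle-treated libraries.

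**Figure D1:**
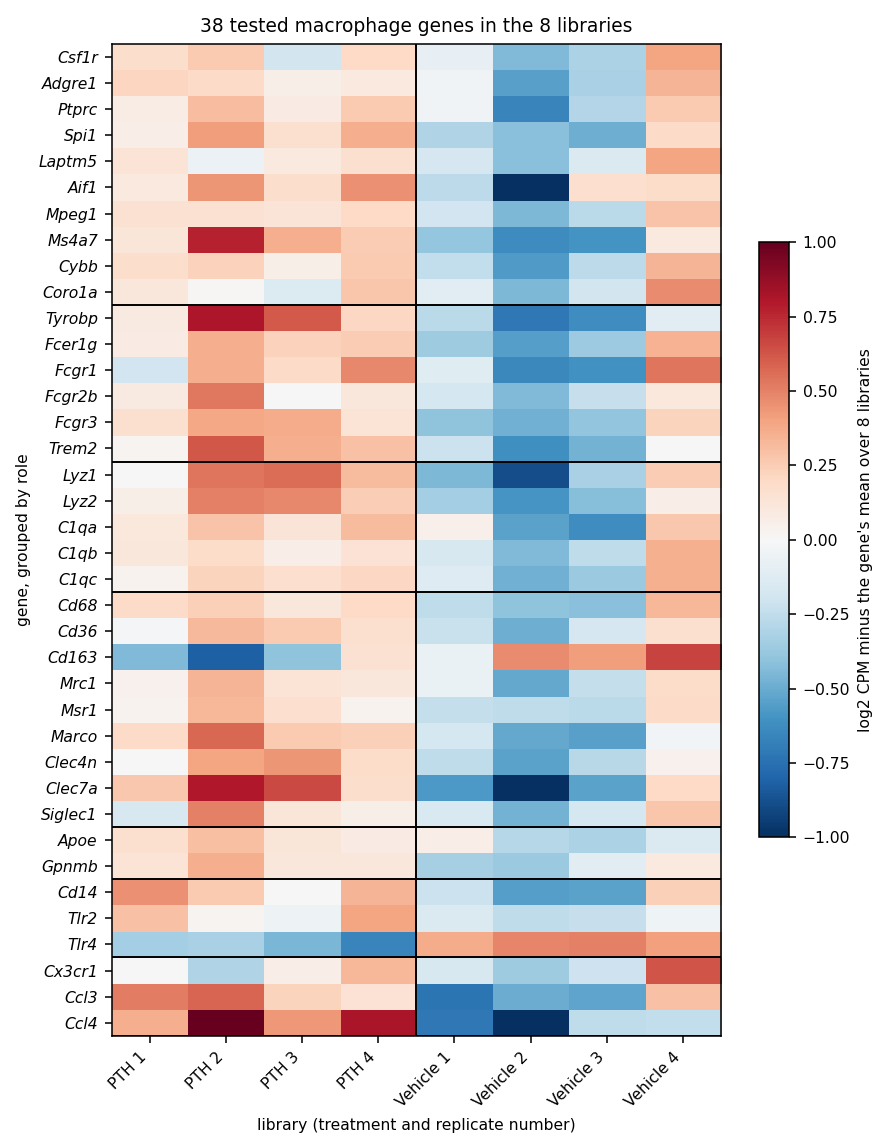
Each row is 1 of the 38 tested macrophage genes and each column 1 library, with the color giving the log2 CPM minus the mean of that gene over the 8 libraries (red above, blue below). Vehicle replicates 1 to 3 are mostly blue, vehicle replicate 4 is mostly red like the PTH-treated libraries, and the row of Tlr4 runs the other way.

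The pattern over single libraries was shared by nearly the whole list. Vehicle replicate 4 was the highest of the vehicle-treated libraries for 36 of 38 members, which it was for 25.4% of all genes tested, and the exceptions were Apoe and Tlr4. Vehicle replicate 2 was the lowest of them for 29 members (20.7% of all genes tested). Over the other 3 vehicle-treated libraries, vehicle replicate 4 was higher by a median factor of 1.5 for the members, from 0.969 for Tlr4 to 1.96 for Fcgr1, and by 0.989 for all genes tested. It lay above every PTH-treated library for 13 members, among them Csf1r, Adgre1, Cd68 and C1qb, within the range of the PTH-treated libraries for 18, and below all of them for 7. The 13 also included Tlr4 and Cd163, whose mean levels were lower with PTH. For Tlr4 every vehicle-treated library lay above every PTH-treated one. The shares of all genes tested that go with these counts were not computed. Within the PTH-treated group, replicate 2 was the highest for 24 members (32.2% of all genes tested) and replicate 4 for 10. Vehicle replicate 4 was also the highest vehicle-treated library for each of the 10 osteoblast genes. The transcription factor Sp7 was at 142.0 CPM there, against 74.8, 86.3 and 108.9 in vehicle replicates 1 to 3. Ibsp, which encodes bone sialoprotein, was at 2073.3 CPM against 1162.4, 1085.9 and 1308.1. For Col1a1 the gap was small, 46842.6 CPM against 43385.3, 41640.2 and 45577.9. Whether that library's osteoblast state bears on its macrophage genes was not tested.

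The summed level of 29 members with little known expression in bone-forming cells gave the same picture. It was 2251.0, 2840.4, 2681.7 and 2470.7 CPM in PTH replicates 1 to 4, and 1780.7, 1455.0, 1630.4 and 2368.1 CPM in vehicle replicates 1 to 4. All PTH-treated libraries lay above vehicle replicates 1 to 3, and vehicle replicate 4 lay between PTH replicates 1 and 4. The difference of the mean log2 sums was 0.52, with a pooled SD of 0.24 between the libraries of a group, and Lyz2 alone made up 53.3% of the sum. As the genes were chosen with results of these data known, no test was made of this sum. A second measure, called the leukocyte index here, was the summed level of 31 genes that are no members and are typical of leukocytes in general (Cd53, Itgam, Ncf1, Plek and others). The index was 409.4, 461.6, 403.9 and 402.3 CPM in PTH replicates 1 to 4, and 301.3, 276.9, 296.9 and 445.3 CPM in vehicle replicates 1 to 4. Here too vehicle replicate 4 lay within the range of the PTH-treated libraries, and it exceeded the mean of the other vehicle-treated libraries by a median factor of 1.52 over the 31 genes. Of the index genes, 12 of 31 were called higher (23.3% of all genes tested) and none lower (22.5%). They ran from Plek (log2 fold change 0.36, adjusted p = 0.0418), a cytoskeletal substrate of protein kinase C, to Lst1 (0.88, adjusted p = 0.0223), a leukocyte transcript of the MHC region.

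**Figure D2:**
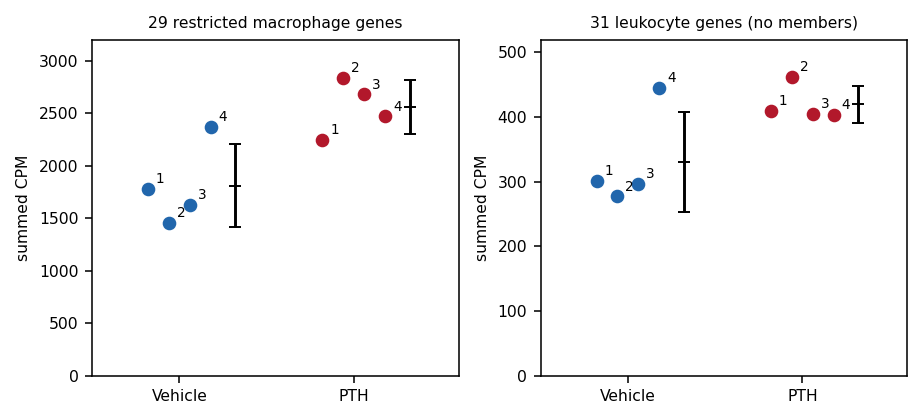
Summed CPM is shown for each library by a numbered point, with the mean and SD of each group of 4 beside the points. The left panel holds the 29 members with little known expression in bone-forming cells, titled restricted there, and the right panel the 31 leukocyte genes of the index. Vehicle replicate 4 stands at 2368.1 and 445.3 CPM, inside the range of the PTH-treated libraries in both panels.

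Treatment groups did not overlap for 7 members with PTH above vehicle (21.2% of all genes tested) and for 1 member with PTH below vehicle (21.8%). Without vehicle replicate 4, 30 of the 38 members had all PTH-treated libraries above the remaining 3 vehicle-treated ones (23.5% of all genes tested). The edgeR quasi-likelihood fit without that library called 33 members higher, where 21.6% of all genes tested were called higher, and 1 lower (20.1%). The 15 genes that it added were Adgre1, C1qa, C1qb, C1qc, Cd68, Csf1r, Cybb, Fcer1g, Fcgr1, Laptm5, Mpeg1, Mrc1, Msr1, Ptprc and Siglec1. When each library was left out in turn, 10 of the 18 higher members kept their call in all 8 fits (Apoe, Ccl4, Clec4n, Clec7a, Fcgr3, Lyz2, Marco, Ms4a7, Trem2 and Tyrobp), as did Tlr4. The other 8 lost it in at least 1 fit, and leaving out vehicle replicate 2 lowered the count of higher members most, to 11.

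Among the 10 genes of macrophage identity, 2 passed the test, Spi1 and Ms4a7, both higher, and the median log2 fold change was 0.30. That share lay below the 23.3% of all genes tested that were called higher. Csf1r (chr18:61100598-61132149), the receptor on which macrophage survival depends, measured 81.9, 87.1, 63.9 and 83.2 CPM in PTH replicates 1 to 4 and 68.7, 53.5, 58.2 and 95.7 CPM in vehicle replicates 1 to 4. Its highest value came from a vehicle-treated library, the groups overlapped, and the log2 fold change of 0.19 ± 0.161 (SE) did not pass the test (adjusted p = 0.352). Its locus also holds the symbol Mir6983 and shares 873 identical transcript bases with Hmgxb3, so a part of its counts may belong to these. For Adgre1, which encodes the surface protein F4/80, the levels were 85.9, 84.5, 77.1 and 79.2 CPM with PTH and 72, 50.6, 59 and 93.3 CPM with vehicle. The PTH-treated libraries sat close together and inside the wide vehicle range (log2 fold change 0.25 ± 0.149, adjusted p = 0.197). Ptprc, the pan-leukocyte phosphatase CD45, had 15.6, 18.4, 15.7 and 17.8 CPM against 14.5, 9.37, 12.1 and 17.8 CPM, with overlap and no call (0.32 ± 0.163, adjusted p = 0.13).

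Spi1 (chr2:91082390-91115756), the transcription factor PU.1, gave 15.1, 19.3, 16.1 and 18.5 CPM in PTH replicates 1 to 4 and 11.7, 10.8, 10.3 and 16.5 CPM in vehicle replicates 1 to 4. Vehicle replicate 4 alone reached into the PTH range, and the gene rose by 0.48 ± 0.147 on the log2 scale (adjusted p = 0.0176), a call that was lost without vehicle replicate 2 or 3. Ms4a7, a membrane protein of macrophages, was at 21.3, 33.5, 25.3 and 23.4 CPM with PTH and at 15, 12.7, 13 and 21 CPM with vehicle. These groups did not overlap, although PTH replicate 1 and vehicle replicate 4 nearly met, and the increase was 0.74 ± 0.173 (adjusted p = 0.00406). The remaining identity genes were Laptm5, Aif1, Mpeg1, Cybb and Coro1a, which spanned log2 fold changes of 0.10 to 0.48 with adjusted p from 0.0831 to 0.671. Mpeg1, which encodes a pore-forming protein of phagosomes, was nearly constant over the PTH-treated libraries at 134.9 to 141.3 CPM, while it ranged from 90.2 to 150.3 CPM with vehicle.

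The Fc receptors and the ITAM adaptors that carry their signal, together with Trem2, included 4 of 6 genes that were higher with PTH (Tyrobp, Trem2, Fcgr3 and Fcgr2b), with a median log2 fold change of 0.46. Among all genes tested, 23.3% were called higher. Tyrobp (chr7:30413760-30417585), the adaptor DAP12 to which Trem2 is coupled, had 27.7, 45.4, 39.8 and 29.9 CPM in PTH replicates 1 to 4 and 21.5, 15.8, 16.9 and 24.1 CPM in vehicle replicates 1 to 4. All 4 PTH-treated libraries lay above all 4 vehicle-treated ones, and the gene rose by 0.86 ± 0.17 (adjusted p = 0.00133). Trem2 (chr17:48346401-48354147), a receptor for lipids and cell debris, was measured at 27.8, 41.9, 35.2 and 33.4 CPM with PTH and at 23.5, 17.9, 19.7 and 27.3 CPM with vehicle. The groups stood apart by a small margin, between PTH replicate 1 and vehicle replicate 4, and the increase was 0.64 ± 0.143 (adjusted p = 0.00295). Its promoter is shown because adaptor and receptor were higher in the same libraries and the RefSeq promoter table used here holds Trem2 and not Tyrobp. That order of libraries was not particular to the pair. Of the 38 tested members, 24 were highest with PTH in replicate 2 and 36 highest with vehicle in replicate 4. The bases are those from 250 to 1 before the start of Trem2 on the plus strand of GRCm38.p6, chr17:48346151-48346400, with GAGGAA, a core of PU.1 sites, in capitals as it reads on the opposite strand.
Trem2: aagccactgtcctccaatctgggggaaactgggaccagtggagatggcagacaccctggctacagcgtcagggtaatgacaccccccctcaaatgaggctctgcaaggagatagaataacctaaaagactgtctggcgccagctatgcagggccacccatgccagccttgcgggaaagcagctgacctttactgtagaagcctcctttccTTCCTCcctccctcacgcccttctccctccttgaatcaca

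Fcgr3, a low-affinity activating receptor for immunoglobulin G, had 37.2, 43.7, 43.2 and 36.7 CPM in PTH replicates 1 to 4 and 25.2, 23.9, 25.4 and 38.9 CPM in vehicle replicates 1 to 4. Vehicle replicates 1 to 3 lay within 23.9 to 25.4 CPM and vehicle replicate 4 fell among the PTH-treated libraries, and the log2 increase was 0.50 ± 0.143 (adjusted p = 0.0124). Fcgr2b, the inhibitory counterpart of this receptor family, was at 17.6, 23.8, 16.6 and 17.9 CPM with PTH and at 14.6, 12.2, 14.1 and 17.8 CPM with vehicle. Its overlapping groups gave an increase of 0.37 ± 0.135 (adjusted p = 0.0428), a call that was lost in 5 of the 8 fits with 1 library left out, those without PTH replicate 2 or 4 or vehicle replicate 1, 2 or 3. Fcgr2b and Fcgr3 lie near each other on chromosome 1 and share 512 transcript bases at 96.3% identity, so the division of reads between them is uncertain. Fcer1g, the common chain of the Fc receptors, had a log2 fold change of 0.42 and missed the threshold (adjusted p = 0.0538), and Fcgr1, the high-affinity receptor, had 0.35 with an adjusted p of 0.323. Below the adaptors in the same pathway, 2 of 12 signalling genes were higher and none lower. That share lay below the 23.3% of all genes tested that were called higher. The 2 genes were Syk, the kinase that binds phosphorylated ITAMs (0.40, adjusted p = 0.0053), and Pik3r5, a regulatory subunit of phosphoinositide 3-kinase (0.65, adjusted p = 0.00254).

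The secreted proteins of the list are the lysozymes, which digest bacterial cell walls, and the 3 chains of C1q, which starts the classical complement pathway. Both lysozyme genes were higher with PTH and none of the C1q genes passed the test. Lyz2 (chr10:117277331-117282321), the lysozyme of macrophages, was the most abundant member at 885.5 CPM per kilobase of transcript. It reached 1169.9, 1593.4, 1572.2 and 1332.8 CPM in PTH replicates 1 to 4 and 888.7, 747.6, 837.3 and 1180.6 CPM in vehicle replicates 1 to 4. PTH replicate 1 was just below vehicle replicate 4, so that the groups overlapped by these libraries alone, and the gene rose by 0.63 ± 0.142 (adjusted p = 0.00312). Lyz1 (chr10:117287797-117292868), its neighbor, had 21, 30.3, 30.9 and 26.1 CPM with PTH and 15.3, 11.3, 16.7 and 25 CPM with vehicle. The order of libraries was much like that of Lyz2, with an increase of 0.66 ± 0.203 (adjusted p = 0.0184) that was lost without PTH replicate 3 or vehicle replicate 1. As the transcripts of the pair are 95.8% identical over 1264 bases, part of the Lyz1 count may be reads of Lyz2.

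The promoters of the lysozyme pair are shown because the genes moved alike and lie side by side on the minus strand of chromosome 10. Both are given 5′ to 3′ from 250 to 50 bases before the start in RefSeq, from which positions are counted here, at chr10:117292918-117293118 for Lyz1 and chr10:117282322-117282522 for Lyz2 (GRCm38.p6, RefSeq promoter table), with GGAAGT, a core of sites for ETS factors, in capitals as it reads on the opposite strand.
Lyz1: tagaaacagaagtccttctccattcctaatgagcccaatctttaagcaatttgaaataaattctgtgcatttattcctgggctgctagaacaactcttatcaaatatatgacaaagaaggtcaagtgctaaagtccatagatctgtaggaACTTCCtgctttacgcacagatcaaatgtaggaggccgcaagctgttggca
Lyz2: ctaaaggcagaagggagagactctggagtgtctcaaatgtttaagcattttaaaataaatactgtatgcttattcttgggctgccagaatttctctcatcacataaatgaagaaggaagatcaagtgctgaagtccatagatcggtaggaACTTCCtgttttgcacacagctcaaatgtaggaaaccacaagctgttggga
The RefSeq start of Lyz2 lies inside the GENCODE gene given above, so that its stretch ends at the base just before the GENCODE start. The motif began at position -100 from the RefSeq start in both. Aligned over 211 columns, the stretches had 156 identical positions (73.9%).

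C1qa, the first chain of C1q, measured 46.9, 53, 47.6 and 54.1 CPM in PTH replicates 1 to 4 and 45, 30.1, 28.3 and 52.5 CPM in vehicle replicates 1 to 4. Vehicle replicates 1 and 4 came close to or into the PTH range while 2 and 3 lay well below it, and the log2 fold change of 0.37 ± 0.169 did not pass the test (adjusted p = 0.0944). C1qb and C1qc had log2 fold changes of 0.22 and 0.28, with adjusted p of 0.217 and 0.15. The genes of the 3 chains form a cluster at chr4:136880129-136898803. C1qb is shown for its promoter, since GAGGAA on the same strand, at position -30, and GGAAGT on the opposite strand, at -53, are both found there, counted from the RefSeq start, which lies a few bases before the GENCODE start of this gene. Its 250 bases lie at chr4:136886201-136886450 on the minus strand, with both motifs in capitals.
C1qb: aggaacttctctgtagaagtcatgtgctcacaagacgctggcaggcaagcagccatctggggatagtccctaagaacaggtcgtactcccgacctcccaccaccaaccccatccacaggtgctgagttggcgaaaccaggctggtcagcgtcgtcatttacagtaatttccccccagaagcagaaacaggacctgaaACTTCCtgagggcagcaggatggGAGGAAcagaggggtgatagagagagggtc

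Over the whole list, 28 of 39 members had an entry in the RefSeq promoter table, which covers 250 bases before and 50 after each start. GAGGAA, read on either strand, was present in 16 of these 28 (57.1%) and in 31.3% of 27025 genes. GGAAGT was present in 14 (50%) and in 26.5% of all genes, and the longer GAGGAAGT, which contains both, in C1qc alone (3.57%, against 3.69% of all genes). The cyclic AMP response element TGACGTCA, the sequence bound by CREB below PTH signalling, was in none of the 28 and in 2.03% of all genes. At a share that small, its absence from 28 promoters tells little, and shorter forms of it were not searched. These matches describe letters in a fixed window and not bound sites.

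Of 9 scavenger receptors and lectins, 4 were higher with PTH (Marco, Cd36, Clec4n and Clec7a) and none was lower, with a median log2 fold change of 0.34. Over all genes tested, 23.3% were called higher and 22.5% lower. Marco (chr1:120474538-120505024), a scavenger receptor for bacteria and particles, had 111.2, 144.8, 116.9 and 114.9 CPM in PTH replicates 1 to 4 and 86.4, 68.5, 66.8 and 95.6 CPM in vehicle replicates 1 to 4. The groups did not overlap, PTH replicate 2 stood highest, and the increase was 0.62 ± 0.122 (adjusted p = 0.00131). Clec7a, the receptor dectin-1 for fungal glucans, was at 4.86, 7.01, 6.37 and 4.54 CPM with PTH and at 2.7, 2.02, 2.77 and 4.62 CPM with vehicle. Only vehicle replicate 4 entered the PTH range, and the gene rose by 0.90 ± 0.245 (adjusted p = 0.00967). The annotation used here (GENCODE M21) lists Clec7a as a polymorphic pseudogene, meaning that some strains lack an intact copy. For Clec4n, which encodes dectin-2, a receptor for fungal mannans, the values were 15.3, 20.2, 20.9 and 17.4 CPM against 12.9, 10.6, 12.7 and 15.8 CPM, with an overlap between PTH replicate 1 and vehicle replicate 4 and an increase of 0.50 ± 0.133 (adjusted p = 0.00855).

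Cd36, a fatty acid translocase and scavenger receptor that is also expressed outside macrophages, gave 57.3, 72.7, 69.5 and 65 CPM in PTH replicates 1 to 4 and 49.8, 41.4, 51.6 and 64.8 CPM in vehicle replicates 1 to 4. Vehicle replicate 4 came within the PTH range, and the increase of 0.35 ± 0.121 (adjusted p = 0.0336) kept its call in only 2 of 8 fits with 1 library left out, those without PTH replicate 1 or vehicle replicate 4. Cd68, a lysosomal glycoprotein, was at 73.8, 76.1, 69.9 and 74 CPM with PTH and at 54.1, 48.9, 48.4 and 81.3 CPM with vehicle. Its PTH values varied little and vehicle replicate 4 exceeded them all (0.34 ± 0.142, adjusted p = 0.072). Mrc1, Msr1 and Siglec1, all receptors of resident macrophages, had log2 fold changes of 0.30, 0.27 and 0.25 without a call. Cd163, the hemoglobin scavenger receptor, went the other way, at 0.585, 0.451, 0.6 and 0.88 CPM with PTH against 0.759, 1.1, 1.06 and 1.27 CPM with vehicle. The groups overlapped between PTH replicate 4 and vehicle replicate 1, and its change of -0.73 ± 0.331 did not pass the test (adjusted p = 0.0918) at this low level, 0.189 CPM per kilobase, the lowest of the tested members.

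Both genes linked to lipid handling were higher with PTH, and for both the groups did not overlap. Over all genes tested, 23.3% were called higher and 21.2% had PTH above vehicle without overlap. Apoe, the lipid carrier apolipoprotein E, which mesenchymal cells make as well, had 221.6, 244.5, 215.8 and 209.6 CPM in PTH replicates 1 to 4 and 207.8, 162.9, 159.2 and 179.6 CPM in vehicle replicates 1 to 4. In this gene vehicle replicate 1, not 4, was the highest vehicle-treated library, and the increase was 0.33 ± 0.0899 (adjusted p = 0.00999). Gpnmb, a glycoprotein of lysosomes also known as osteoactivin, was at 184.6, 216.5, 181.7 and 181.6 CPM with PTH and at 133.6, 130.1, 155.2 and 180.1 CPM with vehicle. The gap between vehicle replicate 4 and the lowest PTH-treated library was narrow, and the increase of 0.35 ± 0.105 (adjusted p = 0.0159) lost its call without vehicle replicate 1 or 2.

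The receptors for bacterial products split. Tlr4 (chr4:66827584-66930284), which recognizes lipopolysaccharide and is also found on stromal cells, had 14, 14.1, 12.9 and 11.2 CPM in PTH replicates 1 to 4 and 22.8, 24.8, 25.1 and 23.5 CPM in vehicle replicates 1 to 4. Every PTH-treated library was far below every vehicle-treated one, vehicle replicate 4 was in no way set apart, and the gene fell by 0.88 on the log2 scale (SE 0.0908, adjusted p = 8.31e-06). Cd14, its coreceptor, was at 15.4, 13.5, 11.3 and 14.2 CPM with PTH and at 9.68, 7.67, 7.76 and 13.3 CPM with vehicle. It rose by 0.50 ± 0.171 (adjusted p = 0.0305), with overlap, and kept the call in 3 of 8 fits, those without PTH replicate 2 or 3 or vehicle replicate 4. Tlr2, the receptor for bacterial lipoproteins, had 30.5, 25.3, 24 and 32.7 CPM against 22.5, 20.8, 21.2 and 24.1 CPM. Its groups met between PTH replicate 3 and vehicle replicate 4, and the increase of 0.34 ± 0.104 (adjusted p = 0.0171) lost its call without PTH replicate 4 or vehicle replicate 2 or 3.

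Among the chemokine genes, Ccl4 showed the largest increase of all 38 tested members. Ccl4 (chr11:83662584-83664683), which encodes an inflammatory chemokine of macrophages, was at 3.26, 5.18, 3.42 and 4.45 CPM in PTH replicates 1 to 4 and at 1.54, 0.941, 2.13 and 2.14 CPM in vehicle replicates 1 to 4. The groups did not overlap, and the increase was 1.26 ± 0.269 (adjusted p = 0.00222). Ccl3 (chr11:83647844-83649355), its neighbor and a chemokine of the same family, had 11.2, 11.8, 9.19 and 8.7 CPM with PTH and 4.73, 5.56, 5.45 and 9.64 CPM with vehicle. Vehicle replicate 4 was again alone in the PTH range, with an increase of 0.69 ± 0.206 (adjusted p = 0.0167) that was lost without any of vehicle replicates 1, 2 or 3. Cx3cr1, the fractalkine receptor, differed by 0.01 ± 0.231 (adjusted p = 0.978), and its highest value, 5.97 CPM, came from vehicle replicate 4.

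To ask whether the members moved together or apart, each was set against the leukocyte index of the same library. For the vehicle-treated libraries this removed most of the spread between replicates: the coefficient of variation of the members had a median of 25.2% in CPM and of 9.41% per unit of index, and it was smaller per unit of index for 34 of 38 members (89.5%) but for 10.4% of all genes tested, whose median went from 9.37% to 22.3%. With PTH the median went from 12.2% to 10.4% over the members and from 12.8% to 14.5% over all genes tested. There the coefficient was smaller per unit of index for 24 of 38 members (63.2%) and for 36.2% of all genes tested. Mpeg1 gives an example, at 33.4%, 29.7%, 33.4% and 35.1% of the index in PTH replicates 1 to 4 and at 35.7%, 32.6%, 34.4% and 33.7% in vehicle replicates 1 to 4. Cd68 was similar, with a mean of 17.6% ± 0.846 (SD, n = 4) of the index with PTH and 17.5% ± 0.872 with vehicle. Csf1r was at 18.8% ± 2.15 and 20.8% ± 1.64. In both Mpeg1 and Cd68, vehicle replicate 4 no longer stood apart from the other vehicle-treated libraries. These ratios share the index of their library, and the counting and gene-to-gene error of the index is part of their spread.

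Scaled to the index in edgeR's quasi-likelihood fit, the members had a median log2 fold change of -0.00, against -0.39 for all genes tested, which this scaling moves as a whole. For 25 of the 38 members the value lay within 0.2 of 0, 9 were above and 4 below. The fit called 3 of the 38 members higher, about the same share as among all genes tested (7.9%). It called 2 lower, a smaller share than among all genes tested (36.9%). Higher were Ccl4 (0.91 ± 0.295, adjusted p = 0.00675), Clec7a (0.58 ± 0.255, adjusted p = 0.0496) and Tyrobp (0.50 ± 0.197, adjusted p = 0.0278). Tlr4 (-1.28 ± 0.201, adjusted p = 3.93e-09) and Cd163 (-1.08 ± 0.46, adjusted p = 0.0434) were lower. Per unit of index, the vehicle coefficient of variation rose from 4.63% to 21.6% for Tlr4 and from 20.3% to 20.7% for Cd163. It also rose for Apoe and Tlr2. The index thus did not narrow the spread of the 2 lower genes, and whether their ratios reflect a change per macrophage was not tested. Without vehicle replicate 4 the fit called 6 members higher (7.66% of all genes tested), adding Ccl3, Lyz1 and Ms4a7, and the same 2 lower (56%). Ccl4 and Tlr4 kept these calls in all 8 fits with 1 library left out. Clec7a kept its call in 1 of the 8, without vehicle replicate 4, while Tyrobp lost it without PTH replicate 2 or 3 or vehicle replicate 2 or 3, and Cd163 lost it without PTH replicate 1, 2 or 3 or vehicle replicate 2 or 3. The standard errors of this fit were at least 0.196, also for members whose ratio hardly varied, since edgeR draws on the spread of all genes, and the error of the index is not in its p-values.

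**Figure D3:**
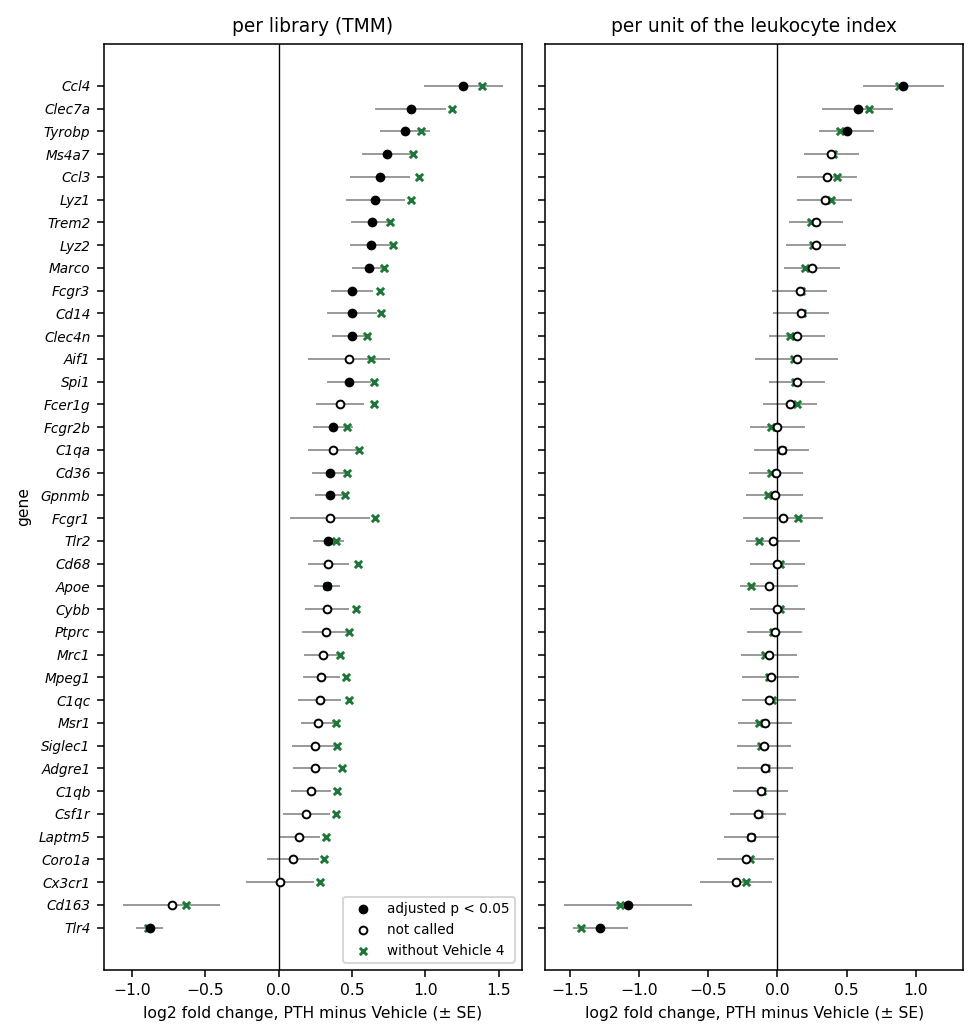
Log2 fold changes of the 38 tested members, PTH minus vehicle, are drawn with their SE per library (left, TMM) and per unit of the leukocyte index (right), filled where the adjusted p was under 0.05, with green crosses for the fit without vehicle replicate 4. On the left most values lie above 0 and move further up without that library, and on the right they gather around 0 and move little, with Ccl4, Clec7a and Tyrobp at the top and Cd163 and Tlr4 at the bottom.

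Single ratios tell which libraries are behind these calls. Ccl4 was at 0.796%, 1.12%, 0.847% and 1.11% of the index in PTH replicates 1 to 4 and at 0.511%, 0.34%, 0.717% and 0.48% in vehicle replicates 1 to 4. Clec7a had 1.19%, 1.52%, 1.58% and 1.13% against 0.896%, 0.73%, 0.935% and 1.04%. In both genes all ratios with PTH exceeded all ratios with vehicle. Tyrobp had 6.77%, 9.84%, 9.86% and 7.43% of the index with PTH and 7.14%, 5.71%, 5.68% and 5.41% with vehicle, so PTH replicates 2 and 3 were high, PTH replicate 1 was below vehicle replicate 1, and the groups overlapped. For Tlr4 the ratios were 3.42%, 3.06%, 3.2% and 2.78% with PTH and 7.55%, 8.96%, 8.46% and 5.27% with vehicle. Here vehicle replicate 4 was the lowest of its group. Cd163 had 0.143%, 0.0978%, 0.149% and 0.219% with PTH and 0.252%, 0.398%, 0.358% and 0.285% with vehicle, without overlap.

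Of the 38 ratios, 6 did not overlap between treatments: Ccl4, Clec7a, Fcgr3 and Ms4a7 were higher with PTH, where 7.34% of all genes tested did so, and Cd163 and Tlr4 were lower (24.3%). For each of these, an exact permutation test of the log2 ratio (two-sided, unadjusted, 38 ratios compared) gave p = 0.0286. That is the smallest value that 4 against 4 libraries allow. Any gene without overlap gets it, so it adds nothing to the separation itself. The difference in Fcgr3 was small, 0.16 on the log2 scale, from 8.57% ± 0.161 of the index with vehicle to 9.59% ± 0.759 with PTH. Ms4a7 went from 4.67% ± 0.25 to 6.13% ± 0.871. Lyz2 had 278.0% ± 13.3 with vehicle and 337.9% ± 42.6 with PTH, values above 100% because this gene alone outweighed the summed index, and its ratio in PTH replicate 1, 285.7%, lay within the vehicle range (exact permutation test, p = 0.0571).

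**Figure D4:**
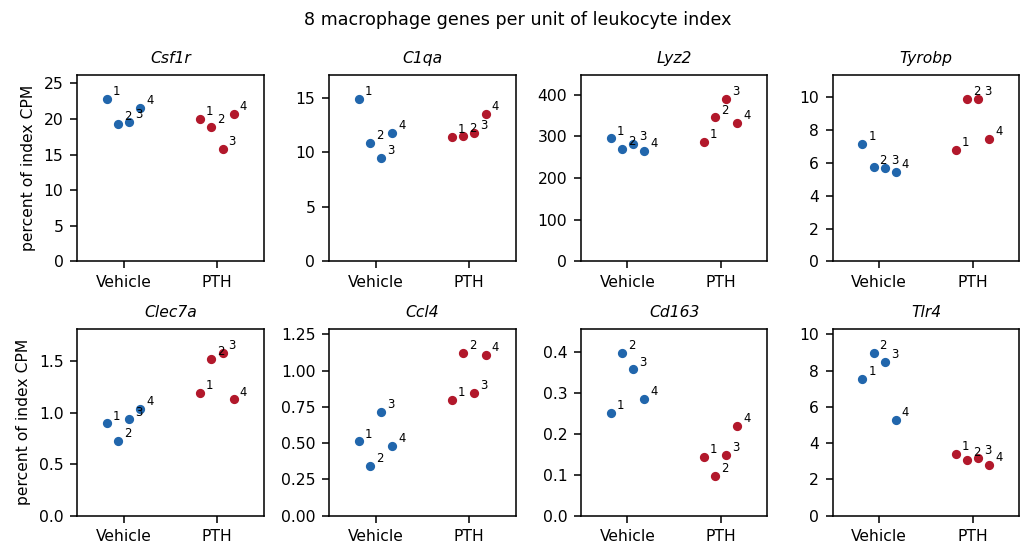
CPM of 8 members as a percent of the leukocyte index CPM of the same library is plotted by treatment, with each point numbered by replicate and every vertical axis starting at 0. Csf1r and C1qa overlap between treatments, Lyz2 and Tyrobp overlap through PTH replicate 1, Clec7a and Ccl4 lie wholly higher with PTH, and Cd163 and Tlr4 wholly lower.

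The length of the transcript moved with these values. Across all genes tested, those under 1500 bases had a median log2 fold change of 0.23 and longer ones of -0.06. Among the members, the 15 shorter genes had a median of 0.50 with 9 called higher, and the 23 longer genes a median of 0.32 with 9 called higher. With an offset for length in edgeR's quasi-likelihood fit, a setting chosen after the data were seen, the medians were 0.39 and 0.39 and 21 members were called higher, where 23.2% of all genes tested were. Tyrobp, a short transcript, went from 0.86 to 0.49 but kept its call (adjusted p = 0.00953), and Ccl3 lost it (0.41, adjusted p = 0.159). Scaled to the index with the same offset, where 7.68% of all genes tested were called higher and 34.7% lower, Clec7a alone remained higher (0.65, adjusted p = 0.0295) and Tlr4 alone lower (-1.19, adjusted p = 4.35e-08). There Tyrobp was at 0.13 (adjusted p = 0.597) and Ccl4 at 0.59 (adjusted p = 0.0911), and Cd163 missed the threshold (adjusted p = 0.0618).

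**Figure D5:**
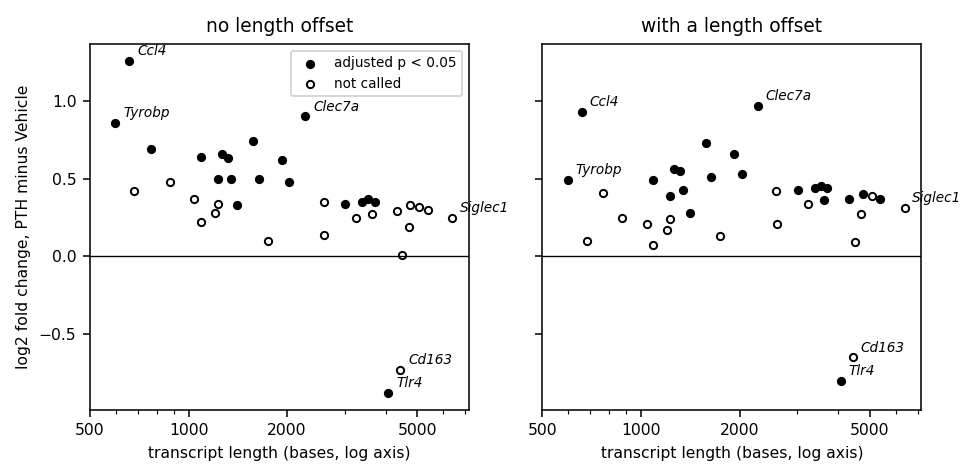
Log2 fold change of each tested member, PTH minus vehicle, is plotted against transcript length in bases on a log axis, without (left) and with (right) an offset for length, filled where the adjusted p was under 0.05. Tyrobp moves from 0.86 to 0.49 and Ccl4 from 1.26 to 0.93, while Clec7a (0.97 with the offset) and Tlr4 (-0.80 with it) change little.

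Other genes of macrophage biology were read from the same fit. Among markers of tissue-resident macrophages, F13a1 (log2 fold change 0.26), Pf4 (0.67) and Maf (0.74) were higher with PTH, and Mertk, a receptor for the uptake of dying cells, fell by 0.57. Maf, a transcription factor that is also made outside macrophages, had 326.3, 259.7, 289.4 and 298.5 CPM in PTH replicates 1 to 4 and 176.9, 176.8, 175.0 and 174.1 CPM in vehicle replicates 1 to 4. Its vehicle-treated libraries lay close together, and vehicle replicate 4 was the lowest of them. That library was also the lowest of its group for F13a1 (17.3 CPM) and Mertk (27.6 CPM), but the highest for Pf4 (6.11 CPM). Which cells these changes came from was not tested. None of the 7 genes for antigen presentation on MHC class II passed the test in either direction by edgeR's quasi-likelihood test, at an unadjusted p under 0.05 or by DESeq2. Of genes of inflammatory activation, 3 of 4 tested were higher, where 23.3% of all genes tested were. These were Tnf (1.21, adjusted p = 0.00622), Cd86 (0.84, adjusted p = 0.00819) and Cd40 (0.79, adjusted p = 0.0429). Mgl2, a lectin, was the 1 of 3 tested genes of alternative activation that was higher (1.42, adjusted p = 0.0178), at 0.301 to 0.496 CPM with PTH, and DESeq2 called none.

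Ligands that stromal cells can provide to macrophages moved both ways. Of 10 tested, 4 were higher with PTH (23.3% of all genes tested) and 3 lower (22.5%). Csf1, the ligand of the Csf1r receptor, was at 176.4, 173.1, 172.7 and 178.0 CPM in PTH replicates 1 to 4 and at 247.7, 252.2, 243.6 and 235.5 CPM in vehicle replicates 1 to 4. Csf1 fell by 0.48 (log2 fold change, adjusted p = 2.59e-05), and Il34, the other ligand of that receptor, fell by 0.39 (adjusted p = 0.000789). Cd47, the signal that inhibits phagocytosis, fell by 0.26. Ccl7, a chemokine for monocytes, reached 107.6, 145.3, 123.1 and 105.5 CPM with PTH from 5.87, 6.75, 6.55 and 6.81 CPM with vehicle, an increase of 4.21 (adjusted p = 5.58e-11), and its relative Ccl2 rose by 2.35 (adjusted p = 3.18e-06). Tnfsf11, the osteoclast-inducing ligand RANKL, rose by 6.48 and Cx3cl1, fractalkine, by 0.68. Osteoclasts share their precursors with macrophages, and of 9 tested osteoclast genes only Nfatc1, a transcription factor of osteoclast formation, was called, with an increase of 1.21 (adjusted p = 1.32e-07). This was a smaller share than the 23.3% of all genes tested that were called higher. Nfatc1 measured 41.4, 43.2, 44.1 and 44.1 CPM in vehicle replicates 1 to 4, so vehicle replicate 4 did not stand apart. For all 7 called ligands the treatment groups did not overlap, 4 with PTH above vehicle (21.2% of all genes tested) and 3 with PTH below (21.8%). These genes were picked by the comparison of the same libraries, so their separation adds nothing about vehicle replicate 4.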

How the data were processed

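Libraries of poly(A) RNA were read in pairs. The authors mapped the reads to GRCm38 (mm10) using HISAT2 and deposited whole-number counts per gene, which StringTie2 and its companion script derived from transcript coverage and which are not normalized. The read length setting of that script, the annotation release and the strand setting are not given in the sources used here. Counts that rest on coverage spread reads of similar genes (Lyz1 and Lyz2, Fcgr2b and Fcgr3) by the assembly's own division.

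Groups came from the sample labels, with 4 PTH-treated and 4 vehicle-treated libraries. Genes were filtered with filterByExpr (minimum count 10, minimum total 15), which left 16736 genes, and the treatments were compared in edgeR 4.0.16 (TMM, two-sided quasi-likelihood F-test, Benjamini-Hochberg adjusted p under 0.05, no minimum fold change) in R 4.3.3. A second fit replaced the library size by the summed counts of 31 leukocyte genes. DESeq2 1.42.0, the tool of the authors, served as an alternative. The other alternatives were DESeq2's size factors, no filter, the replicate number as a block, each library left out, halved counts, counts summed by symbol, other forms of the index and of the summed level, and, added after the data were seen, an offset for transcript length. Exact permutation tests and tables used SciPy 1.17.1 and pandas 2.3.3, plots matplotlib 3.10.9, and similar transcripts blastn 2.17.0 (at least 95% identity over 150 bases). Positions and lengths came from GENCODE M21, promoters from RefSeq. The edgeR steps were tested on simulated data. Depth limits genes with few counts, such as Ccr2 and Cd163.

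The members and the other gene lists were chosen with earlier results of these data known, so list counts are descriptions beside the share of all genes called. Values in every library are given for members called by the test and for Csf1r, Adgre1, Ptprc, Spi1, Cd68, C1qa, Tyrobp and Lyz2. From other lists, the called genes with the largest and smallest change are named, or all where at most 5 were called. Cd163, Mpeg1, Sp7, Ibsp and some further genes were named after their values were seen. The read files were not analysed here, and 1 result of the list of resident macrophage markers is not reported here.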

Additional observations from a re-analysis of the deposited data

Results flagged for a closer look

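A single library far from the other 3 of its group was found in 8 of 80 groups of 4 values examined (each tested member and both sums in each treatment), by Dixon's ratio of gap to range above its 95% critical value. Chance alone flags about 1 in 20 such groups, and the members are not independent of one another. Vehicle replicate 4 accounted for 5 of the 8. It had 26.8 CPM of Msr1 against 19.5 to 19.9 in the other vehicle-treated libraries, 38.9 CPM of Fcgr3 against 23.9 to 25.4, 5.97 CPM of Cx3cr1 against 3.01 to 3.46, and 9.64 CPM of Ccl3 against 4.73 to 5.56. Its summed leukocyte index was 445.3 CPM against 276.9 to 301.3. PTH replicate 2 accounted for the other 3, with 144.8 CPM of Marco against 111.2 to 116.9 in the other PTH-treated libraries, 216.5 CPM of Gpnmb against 181.6 to 184.6, and a leukocyte index of 461.6 CPM against 402.3 to 409.4. PTH replicate 2 was also the library with the lowest total count, 33605610, and the part of depth in these values was not tested.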

How the results depend on the processing

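The count of members higher with PTH, 18 in the comparison as reported, was 19 by DESeq2, 19 when edgeR took the size factors of DESeq2, 19 with halved counts, 13 without a filter on low counts, 18 with counts summed by symbol and 21 with the length offset, while these fits called 13.3% (no filter) to 25.3% (halved counts) of all genes tested higher. Leaving out each library in turn gave 11 (without vehicle replicate 2) to 33 (without vehicle replicate 4), and Tlr4 was the 1 lower member in every one of these fits. Members without overlap between treatments numbered 7 to 30 (higher, 7 as reported) and 1 to 2 (lower, 1 as reported) over the same omissions, with 11 higher without PTH replicate 1 and 30 without vehicle replicate 4. Relative to the leukocyte index, 3 members were called higher as reported and 1 to 6 with 1 library left out (1 without PTH replicate 2 or 3 or vehicle replicate 2 or 3, 6 without vehicle replicate 4), 1 with the geometric mean of the index genes (7.15% of all genes tested) and 1 with the length offset, while 2 were lower as reported, 1 to 2 with 1 library left out and 1 with the length offset. The summed log2 difference of 0.52 ranged from 0.42 to 0.66 with 1 library left out. Over all genes tested, samples with the same replicate number did not deviate together (correlations of -0.0376, -0.0327, -0.0409 and 0.0274). This was not computed for the members alone, so it does not settle whether the numbers pair the samples. With the replicate block, 22 members were higher (21.3% of all genes tested) and 1 lower (20.5%), and relative to the index 1 was higher (6.54%) and 1 lower (26.2%). No member changed direction from a called value under any of these alternatives, and why counts moved was not tested. Depth limits members with few counts, such as Ccr2, Cd163, Aif1, Ccl4 and Fcgr1.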
